A study of Mus musculus with 16 samples.

Results

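The dual-specificity MAPK phosphatases are a family of enzymes that remove phosphate from the threonine and the tyrosine in the activation loop of mitogen-activated protein kinases (MAPKs), and so switch ERK, JNK and p38 off. A list of 10 of their genes was followed here, Dusp1, Dusp2, Dusp3, Dusp4, Dusp5, Dusp6, Dusp7, Dusp10, Dusp16 and Dusp22, out of 50686 genes in the count files. The list was drawn up with results of these data known. It was chosen because Dusp3 stood lower with Senexin B, so the members' values in the Senexin B comparison are given below as a description, with no p-value and nothing read from their calls. The members were tested for differences between genotypes and, Dusp3 aside, for whether genotype altered their change with Senexin B.

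The samples were 16 RNA libraries of 8 BCR-ABL1p185+ cell lines from C57BL/6N mouse bone marrow, a model of B-cell acute lymphoblastic leukaemia in which the BCR-ABL1 fusion kinase drives growth. 4 lines were Cdk8fl/fl, labelled as wild type, and 4 were Cdk8Δ/ΔVav-Cre, labelled as Cdk8 knockout and called Cdk8-deficient here. Each line was individually derived, and the Vav promoter drives Cre in blood-forming cells. Every line was cultured for 48 h with DMSO alone or with 1 µM Senexin B, an inhibitor of the Mediator kinases CDK8 and CDK19, so each of the 4 groups held 4 libraries and all cells of both genotypes carried BCR-ABL1p185.

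MAPK phosphatases act as negative feedback: ERK activity induces several of their genes, and the proteins in turn shut ERK off. The family falls into inducible nuclear enzymes (Dusp1, Dusp2, Dusp4, Dusp5), cytoplasmic enzymes selective for ERK (Dusp6, Dusp7), enzymes directed mainly at JNK and p38 (Dusp10, Dusp16) and small atypical enzymes that lack the MAPK-binding domain (Dusp3, Dusp22). In pre-B leukaemia driven by BCR-ABL1, which activates RAS and ERK strongly, DUSP6 is known as a brake that transformed cells need.

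The libraries held 13145876 to 18349425 assigned reads. Cdk8 itself was at 64.9 ± 3.03 counts per 1000000 (CPM) in Cdk8fl/fl and 44.3 ± 7.10 CPM in Cdk8-deficient lines in DMSO (SD, n = 4 each; exact two-sided permutation test, p = 0.0286), and at 64.4 ± 16.7 and 47.4 ± 9.60 CPM with Senexin B (p = 0.114, same exact test); these are counts over the whole gene, which also holds exons outside the deleted part. All 14 B-lineage markers reached 1 CPM in at least 1 library of each group, though Rag2 ranged from 0.14 to 44.9 CPM over the libraries. The 14 summed to 6043 to 9859 CPM per library, while Cd3g, Ncr1, Elane and Pf4 were at 0 in all 16. Of the T, NK, myeloid, erythroid and megakaryocyte markers, Klrb1c reached 81.4 CPM and Lyz2 24.6 CPM in single libraries. In such bulk libraries fewer cells with a transcript and less of it per cell cannot be told apart. CPM below means counts scaled by the trimmed-mean (TMM) library size.

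All 10 genes were read in every library, the lowest count of any being 54, and all passed the filter on low counts in every comparison. Compared per length, as CPM per kilobase of exon, 3 genes dominated. Dusp5 had the highest median over the 16 libraries (149), followed by Dusp6 (133) and Dusp7 (89.3), and together these 3 made up 85.3% of the summed level of the 10 genes in the median library (range 75.8% to 87.9%). Dusp2 followed at 34.5 and Dusp1 at 9.33. The remaining 5 genes sat near or below the median of all 14164 genes tested (5.34), with Dusp4 at 5.67, Dusp22 at 5.11, Dusp10 at 3.03, Dusp3 at 2.27 and Dusp16 at 1.94. Neighbours in this order were separated in all 16 libraries from Dusp6 down to Dusp1, where each gene lay above the next. Dusp5 lay above Dusp6 in 10 of 16 libraries, and from Dusp1 downward a gene lay above its neighbour in only 8 to 12 of 16, so those orders were not distinct beyond the spread.

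**Figure D1:**
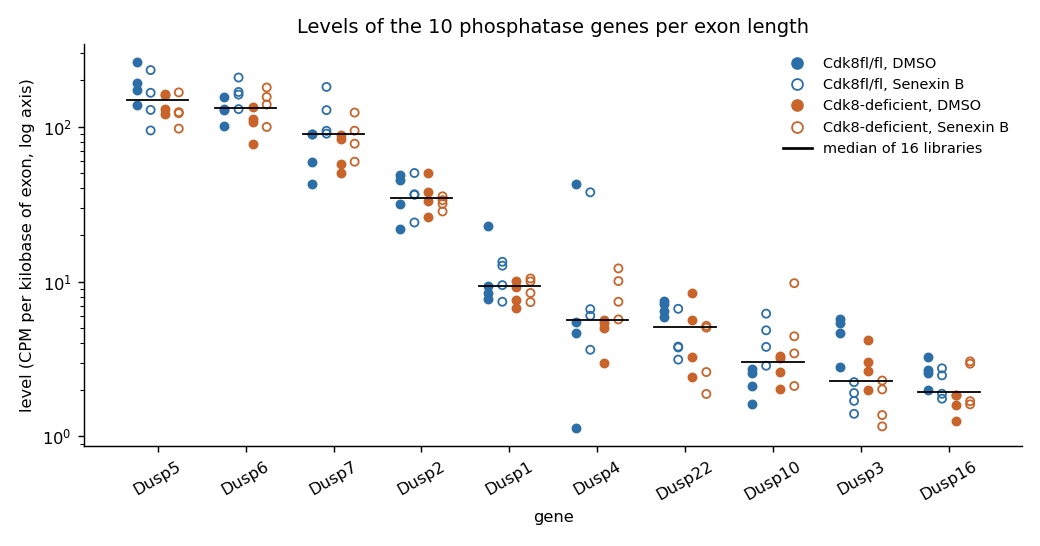
Level of each gene in CPM per kilobase of exon (log axis), 4 points for each of the 4 groups and a black bar for the median of 16 libraries. Dusp5, Dusp6 and Dusp7 stand above the other genes, and Dusp4 has 2 points far above the rest, both from Cdk8fl/fl line 4.

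Senexin B went with opposite changes in different members. Within line, that is comparing the DMSO and Senexin B libraries of the same cells, Dusp3 and Dusp22 were lower in 8 of 8 lines and Dusp6, Dusp7 and Dusp10 were higher in 8 of 8. Over all 14164 genes, 2.59% were lower and 1.96% higher in every line. The Dusp3 count is what the list was chosen on, and nothing is read from either count. The sequences just upstream of the RefSeq starts of 4 of these genes are shown here because the genes moved in the same direction in every line, lower for the first pair and higher for the second.

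Dusp3: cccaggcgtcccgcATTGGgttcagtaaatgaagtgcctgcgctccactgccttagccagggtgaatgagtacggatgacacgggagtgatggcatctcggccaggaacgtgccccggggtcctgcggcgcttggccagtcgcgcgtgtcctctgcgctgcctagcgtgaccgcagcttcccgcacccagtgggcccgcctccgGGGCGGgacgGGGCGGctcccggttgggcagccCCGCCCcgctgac
Dusp22: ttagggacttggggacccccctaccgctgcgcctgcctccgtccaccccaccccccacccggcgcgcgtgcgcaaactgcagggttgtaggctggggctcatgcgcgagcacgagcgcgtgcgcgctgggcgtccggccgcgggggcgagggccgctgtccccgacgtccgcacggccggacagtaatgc
Dusp6: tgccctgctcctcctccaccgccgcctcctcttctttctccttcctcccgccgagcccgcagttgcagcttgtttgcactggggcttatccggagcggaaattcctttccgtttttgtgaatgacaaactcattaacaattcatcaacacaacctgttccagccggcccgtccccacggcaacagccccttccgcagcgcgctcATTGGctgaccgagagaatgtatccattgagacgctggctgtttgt
Dusp7: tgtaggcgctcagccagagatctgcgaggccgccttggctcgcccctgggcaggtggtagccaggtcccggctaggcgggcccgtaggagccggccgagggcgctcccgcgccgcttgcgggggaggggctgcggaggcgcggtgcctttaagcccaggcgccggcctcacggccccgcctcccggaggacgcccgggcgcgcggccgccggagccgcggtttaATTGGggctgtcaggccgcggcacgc

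The 4 stretches are from RefSeq (GRCm38.p6), are printed in the direction of the gene and end just before its RefSeq start, or, for Dusp22, before the gene as counted: chr11:101984792-101985041 on the minus strand for Dusp3, chr13:30659809-30659998 on the plus strand for Dusp22, chr10:99262981-99263230 on the plus strand for Dusp6 and chr9:106368382-106368631 on the plus strand for Dusp7. The RefSeq start of Dusp3 lies inside the gene as counted, whose outermost start is further upstream, so its stretch is within that gene. Capitals mark every match within them to the motifs below, searched on both strands; matches past the printed stretch, such as the GC boxes of Dusp7 and Dusp22, are not shown. Windows of 300 bases around the start were searched for 9 of the 10 genes, all but Dusp4, and for 32851 starts in all. The GC box (GGGCGG) was in 8 of the 9 windows, all but that of Dusp6, against 35.7% of all windows, and the CCAAT box (CCAAT) in 5 of 9, those of Dusp3, Dusp6, Dusp7, Dusp10 and Dusp16, against 37.4%. GC content was 57.3% to 79.0% in the 9 windows, with a median of 68.7% against 52.7% over all windows. The cyclic AMP response element (TGACGTCA) was in the Dusp1 window alone (1.79% of all windows), its shorter form TGACG, which lies within it, in those of Dusp1, Dusp2, Dusp5 and Dusp16 (20.8%), and the E-box (CACGTG) in those of Dusp1 and Dusp2 (7.15%). No window of the 9 held the AP-1 (TGANTCA, 7.81%), ETS (CCGGAAG, 8.86%), STAT (TTCNNNGAA, 8.30%) letters, nor those of the TATA promoter box (written TATAAA, 13.6%). Of the 4 genes printed, the windows of Dusp3 and Dusp7 held both a GC box and a CCAAT box. That of Dusp6 held the CCAAT box without the GC box, and that of Dusp22 the GC box without the CCAAT box. Whether any motif had a part in the changes was not tested. A match says only that these letters are present.

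Dusp3, a small atypical phosphatase also known as VHR that acts on ERK and JNK, lies at chr11:101971143-101987013 (GRCm38, minus strand). Cdk8fl/fl lines 1 to 4 held 13.1, 27.0, 21.8 and 25.3 CPM of it in DMSO and 6.55, 7.94, 10.5 and 8.93 CPM with Senexin B. Each Senexin B library was below each DMSO library, an order that 1.31% of tested genes showed. Nothing is read from that order, since the list was chosen on the fall of Dusp3. The mean within-line change was -1.33 ± 0.37 on the log2 scale (SD, n = 4). Cdk8-deficient lines 1 to 4 held 12.4, 19.7, 9.40 and 14.1 CPM in DMSO and 10.7, 9.42, 6.43 and 5.43 CPM with Senexin B, a mean change of -0.80 ± 0.52 (SD, n = 4). There the groups overlapped, the Senexin B libraries of lines 1 and 2 lying above the DMSO library of line 3. In line 1 Dusp3 was 0.21 lower on the log2 scale, the smallest step of the 8 lines, against 1.77 lower in Cdk8fl/fl line 2. With Senexin B the lines of both genotypes thus lay in one range, 5.43 to 10.7 CPM, while in DMSO they spread from 9.40 to 27.0 CPM. Genes that overlap Dusp3 on the other strand had 0 or 1 count in every library.

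Dusp22 (chr13:30659999-30711231, plus strand), also known as JKAP and tied to JNK signalling, was lower by a smaller amount. In DMSO its levels were 10.3, 12.4, 11.2 and 12.96 CPM in Cdk8fl/fl lines 1 to 4, and with Senexin B 6.63, 11.6, 5.46 and 6.54 CPM. Line 2 of this genotype hardly moved and kept the groups overlapping. The Cdk8-deficient lines held 14.7, 5.70, 4.19 and 9.87 CPM in DMSO and 9.02, 4.54, 3.28 and 8.78 CPM with Senexin B. The within-line change was -0.69 ± 0.43 in Cdk8fl/fl and -0.39 ± 0.22 in Cdk8-deficient lines (log2, SD, n = 4 each). Differences among the Cdk8-deficient lines, 3.50-fold from lowest to highest in DMSO, were larger than the change with Senexin B in any of them.

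Dusp6 (chr10:99263231-99267489, plus strand), the cytoplasmic ERK phosphatase, was higher with Senexin B by nearly the same ratio in most lines. Cdk8fl/fl lines 1 to 4 went from 410, 489, 314 and 403 CPM to 504, 650, 406 and 524 CPM. The 4 Cdk8-deficient lines went from 422, 243, 335 and 353 CPM to 487, 312, 435 and 560 CPM. Every line moved up, but the lines differed enough from each other that the groups overlapped in both genotypes. The within-line change was 0.36 ± 0.05 in Cdk8fl/fl lines, the smallest SD of the 10 genes, and 0.40 ± 0.19 in Cdk8-deficient lines (log2, SD, n = 4 each).

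Dusp7 (chr9:106368632-106375724, plus strand), which like Dusp6 prefers ERK, was also higher in every line. From DMSO to Senexin B it went from 200, 303, 301 and 143 CPM to 315, 606, 429 and 302 CPM in Cdk8fl/fl lines 1 to 4. In the Cdk8-deficient lines it went from 193, 168, 298 and 280 CPM to 199, 260, 413 and 316 CPM. The change was thus 0.81 ± 0.27 in the former and 0.33 ± 0.27 in the latter (log2, SD, n = 4 each). Cdk8-deficient line 1, at 0.04, barely moved, and Cdk8fl/fl lines 2 and 4 were at 1.00 and 1.08.

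Among the JNK- and p38-directed genes, Dusp10 (chr1:184013302-184075636, plus strand; MKP-5) was low and variable. Cdk8fl/fl lines 1 to 4 went from 7.86, 4.91, 6.44 and 8.33 CPM to 18.9, 14.7, 11.5 and 8.70 CPM, and all 4 Senexin B libraries lay above all 4 DMSO libraries, as for 0.847% of tested genes. Cdk8-deficient lines went from 6.11, 10.1, 9.72 and 7.88 CPM to 6.44, 13.5, 29.7 and 10.5 CPM, with line 3 far above the others. The change was 0.94 ± 0.66 in Cdk8fl/fl and 0.63 ± 0.67 in Cdk8-deficient lines (log2, SD, n = 4 each), and in the latter the SD was about as large as the mean. A gene on the other strand, 1700056E22Rik, overlaps Dusp10 and had 1 to 15 counts, against at least 78 for Dusp10. Dusp16 (chr6:134715468-134792625, minus strand; MKP-7) changed by -0.24 ± 0.58 in Cdk8fl/fl lines, of which 1 of 4 was higher, and by 0.46 ± 0.32 in Cdk8-deficient lines, of which 4 of 4 were higher (log2, SD, n = 4 each).

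The inducible nuclear genes showed no common direction. Dusp5 (chr19:53529109-53542431, plus strand), which holds ERK in the nucleus in its inactive form, was lower in 7 of 8 lines, by -0.34 ± 0.18 in Cdk8fl/fl and -0.18 ± 0.20 in Cdk8-deficient lines (log2, SD, n = 4 each), the exception being Cdk8-deficient line 2. Dusp4 (chr8:34807297-34819894, plus strand; MKP-2) was higher in 7 of 8 lines, with 0.54 ± 0.81 and 0.88 ± 0.57. In Cdk8-deficient lines all 4 Senexin B libraries of Dusp4 lay above the DMSO libraries, as for 0.888% of tested genes. Dusp1 (chr17:26505590-26508519, minus strand; MKP-1) was higher in 5 of 8 lines, and Dusp2 (chr2:127336159-127338376, plus strand; PAC-1) in 4 of 8. Their mean changes lay between -0.16 and 0.11, inside an SD of 0.17 to 0.90.

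**Figure D2:**
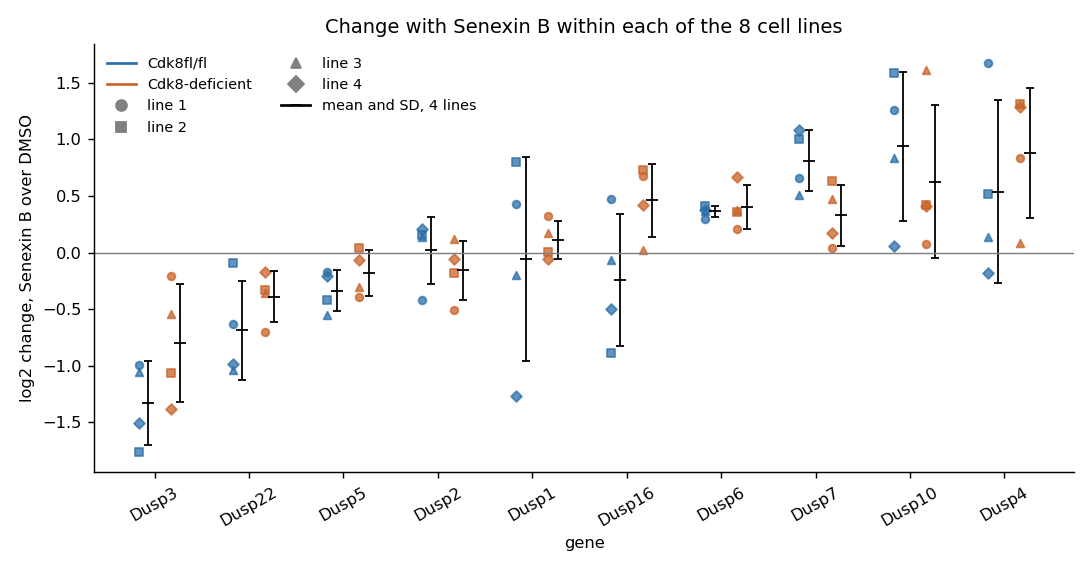
Log2 ratio of Senexin B over DMSO within each of 8 cell lines, 1 symbol per line, with the mean and SD of 4 lines in black, genes ordered by median change. All 8 points lie below 0 for Dusp3 and Dusp22 and above 0 for Dusp6, Dusp7 and Dusp10; Dusp16 points lie on both sides in Cdk8fl/fl lines and above 0 in Cdk8-deficient lines.

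In the fit without pairing, edgeR called 0 of the 10 genes and 0% of all genes for Senexin B, at an adjusted p under 0.05 and a change over 2-fold, while 688 genes had an unadjusted p under 0.05 over all 8 lines. With the line as a block, which the same-line libraries allow, Dusp3 was the 1 member called in Cdk8fl/fl lines (0.346% of all genes) and over all 8 lines (0.946%), and 0 were called in Cdk8-deficient lines (0.0527%). Without the fold limit, Dusp3, Dusp6 and Dusp7 made 3 members over all 8 lines against 2.63% of all genes. DESeq2 without a block called 1 member in Cdk8fl/fl lines (0.139%) and 1 over all 8 lines (0.113%). Nothing is read from these counts, since the list was chosen on this comparison.

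**Figure D3:**
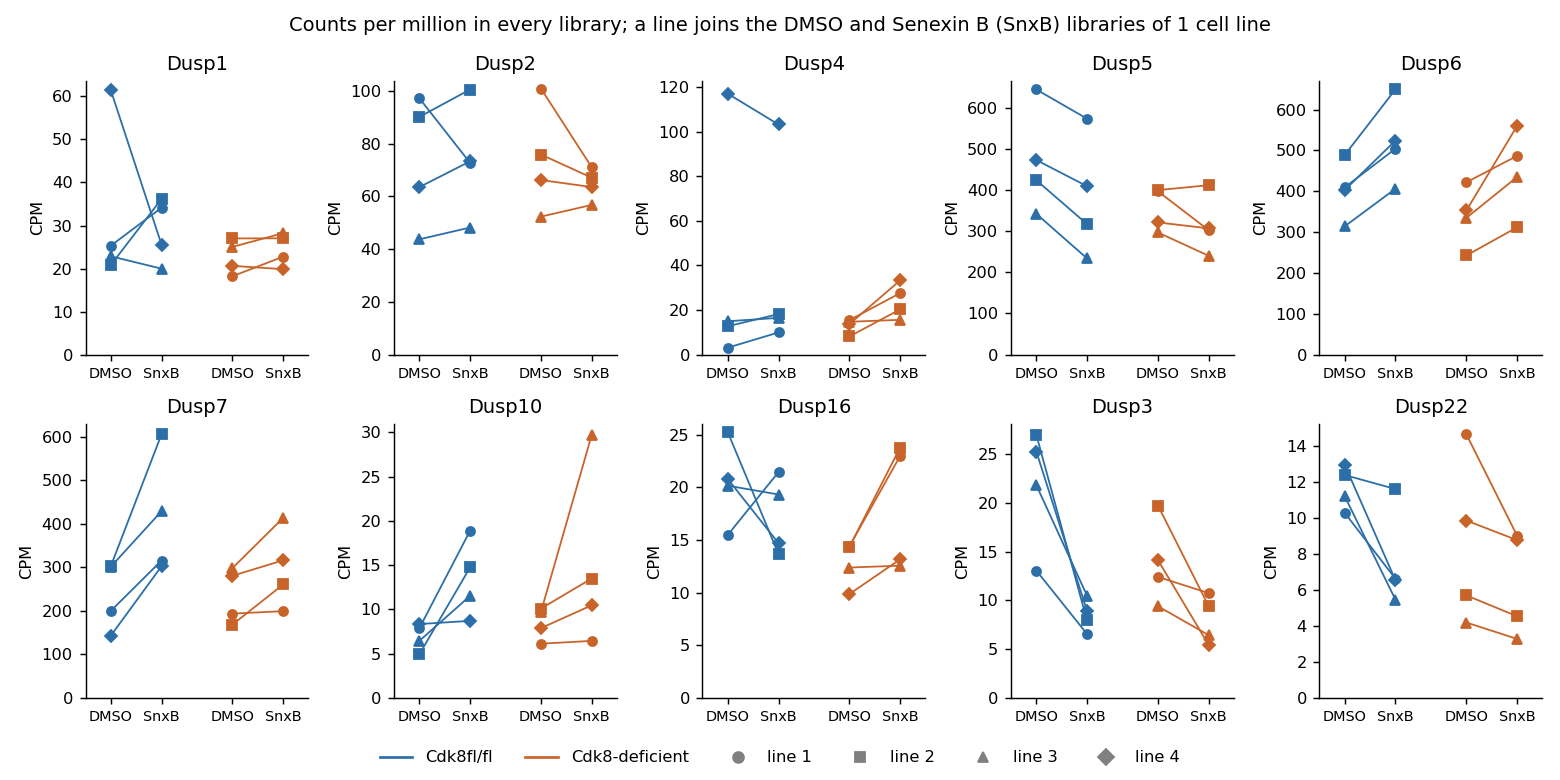
CPM of the 10 genes in all 16 libraries, with a line joining the DMSO and Senexin B (SnxB) libraries of a cell line, Cdk8fl/fl in blue and Cdk8-deficient in orange. Dusp6 and Dusp7 slope up and Dusp3 slopes down in every line, and Dusp4 of Cdk8fl/fl line 4 sits above 100 CPM in both libraries.

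Loss of Cdk8 did not move any member past the test. In DMSO, 0 of the 10 genes were called by edgeR's quasi-likelihood test, against 0.00759% of the 13174 genes tested, that is 1 gene. DESeq2 called 21 genes, and 0 of the 10. In Cdk8-deficient lines 8 members lay lower and 2 higher, with a median log2 fold change of -0.43 beside 0.00174 for all tested genes. 1 of the 10 had an unadjusted p under 0.05, against 5.32% of all genes, and the same 1, Dusp16, was the only member whose groups did not overlap, against 3.14% of all genes. No difference was read from 1 gene of 10.

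Dusp16, a phosphatase that holds JNK in check, was at 15.5, 25.2, 20.2 and 20.8 CPM in Cdk8fl/fl lines and at 14.4, 14.3, 12.4 and 9.87 CPM in Cdk8-deficient lines in DMSO. The lowest Cdk8fl/fl line was just above the highest Cdk8-deficient line. The log2 fold change was -0.68 with an SE of 0.21 and a 95% confidence interval of -1.15 to -0.21, but an adjusted p of 0.897 by edgeR. An exact two-sided permutation test on log2(CPM + 1) gave p = 0.0286, the smallest that 4 against 4 allow, among 20 such tests of members. With Senexin B the levels were 21.5, 13.7, 19.3 and 14.7 CPM against 23.0, 23.8, 12.6 and 13.2 CPM, the groups overlapped, and the log2 fold change was 0.07 (interval -0.59 to 0.73).

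Dusp3 stood next, at 21.8 ± 6.20 CPM in Cdk8fl/fl and 13.9 ± 4.34 CPM in Cdk8-deficient lines in DMSO (SD, n = 4 each). Its log2 fold change of -0.64 (SE 0.30, interval -1.32 to 0.04) did not pass edgeR's test, at an adjusted p of 0.897. With Senexin B the difference was -0.08 (interval -0.77 to 0.61). Of the abundant ERK phosphatases, Dusp5 differed by -0.41 (-0.88 to 0.06), Dusp6 by -0.25 (-0.70 to 0.19) and Dusp7 by -0.01 (-0.66 to 0.65) in DMSO. A difference of over 2-fold in either direction thus lay outside the interval for these 3 genes, as it did for Dusp2 and Dusp10, given next. Dusp1 was at -0.52 (-1.33 to 0.30), Dusp2 at 0.01 (-0.64 to 0.65), Dusp22 at -0.44 (-1.30 to 0.41) and Dusp10 at 0.30 (-0.31 to 0.91).

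Dusp4 had the largest value and the widest interval, -1.50 (-3.68 to 0.67), and the value rested on 1 line. Cdk8fl/fl lines 1 to 4 held 3.12, 12.7, 15.0 and 117 CPM of Dusp4 in DMSO and 9.94, 18.2, 16.5 and 103 CPM with Senexin B. Cdk8-deficient lines held 15.5, 8.14, 14.7 and 13.7 CPM in DMSO and 27.6, 20.3, 15.6 and 33.3 CPM with Senexin B. Line 4 of the Cdk8fl/fl genotype was thus far above all others in both libraries, and line 1 was the lowest of the 8 in both. Without the DMSO library of Cdk8fl/fl line 4 the log2 fold change turned to 0.33, and its SE went from 0.95 to 0.52. Without the Senexin B library of that line the difference with Senexin B turned from -0.61 to 0.70.

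With Senexin B, 0 of the 10 genes and 0% of 13010 genes were called between genotypes by edgeR (202 genes, 1.55%, had an unadjusted p under 0.05, and DESeq2 called 3). Again 8 of the 10 were lower in Cdk8-deficient lines, with a median of -0.23 beside -0.00365 for all genes, and the groups of 0 members were apart, against 0.999% of genes. Dusp7 had the lowest p, at 413 ± 140 CPM in Cdk8fl/fl and 297 ± 91.0 CPM in Cdk8-deficient lines (SD, n = 4 each). Its log2 difference was -0.48 (SE 0.30, interval -1.15 to 0.20). The comparisons in DMSO and with Senexin B used the same 8 lines.

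**Figure D4:**
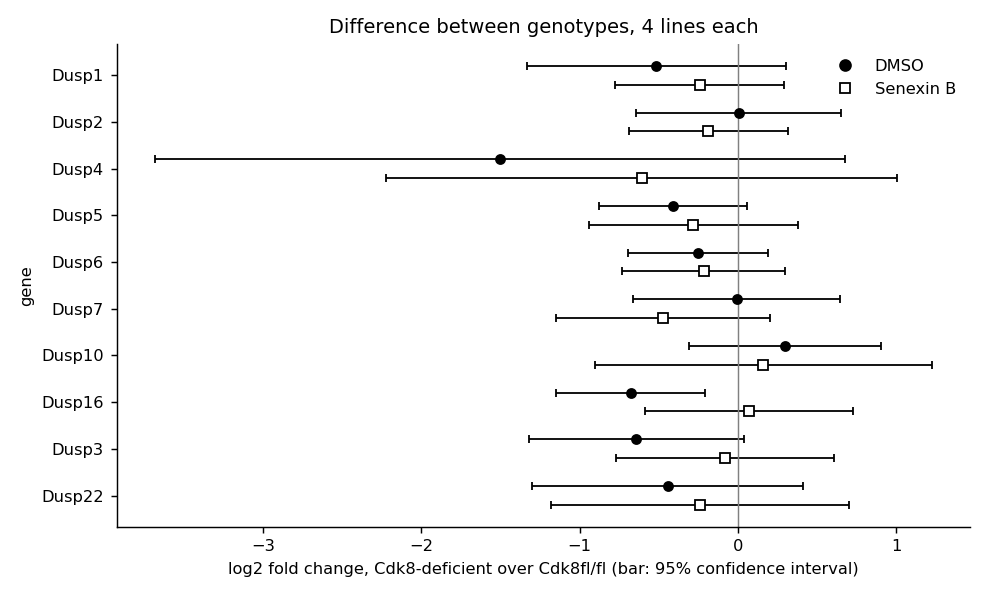
Log2 fold change of Cdk8-deficient over Cdk8fl/fl lines with its 95% confidence interval, in DMSO (filled circles) and with Senexin B (open squares), from edgeR. The intervals include 0 for all genes but Dusp16 in DMSO, whose adjusted p was 0.897, and Dusp4 has the widest.

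Whether the change with Senexin B differed between genotypes was tested as the interaction, for the members other than Dusp3. edgeR called 0 of these members and 0% of 14164 genes (67 had an unadjusted p under 0.05, 0.473%, and DESeq2 called 0). Dusp16 had the lowest p, with a change that was 0.75 higher on the log2 scale in Cdk8-deficient lines (SE 0.35, interval -0.00455 to 1.5, adjusted p of 1.00 by edgeR). With the line as a block, Dusp16 was at 0.70 (interval 0.05 to 1.36) and Dusp7 at -0.48 (interval -0.91 to -0.05), the 2 members with an unadjusted p under 0.05 against 3.24% of all genes, both with an adjusted p of 0.991 by edgeR. For Dusp6 the interaction was 0.04 with a blocked interval of -0.30 to 0.38. Dusp3 changed by -1.33 and -0.80 in the 2 genotypes, given as values only.

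No gene in the rest of the pathway was called between genotypes in DMSO, though single genes differed widely among lines. Of 16 other DUSP and STYX genes, 8 were read well enough to test, led by Dusp11, an RNA phosphatase, at a median of 401 CPM, while the other 7 were under 10 CPM and Dusp21, Dusp26 and Dusp27 were at 0. In the genotype comparison in DMSO, 0 were called of the 8 other DUSP genes, 5 other MAPK phosphatases, 10 MAP kinases, 11 MAP2K and RAF kinases, 14 RAS and adaptor genes, 22 ERK feedback and target genes and 16 JNK and p38 effectors. Their medians were 0.29, -0.15, -0.09, -0.25, -0.15, 0.01 and -0.03 in that order, and 10 of the 11 MAP2K and RAF kinases were lower in Cdk8-deficient lines. Egr1 and Atf3, stress and growth factor response genes picked after their values were seen, were at 330 ± 191 and 80.9 ± 53.3 CPM in Cdk8fl/fl and at 131 ± 53.1 and 24.7 ± 13.9 CPM in Cdk8-deficient lines in DMSO (SD, n = 4 each), with overlapping groups. With Senexin B they were at 121 ± 31.6 and 29.99 ± 32.6 CPM in Cdk8fl/fl lines and at 109 ± 70.9 and 36.4 ± 36.4 CPM in Cdk8-deficient lines (SD, n = 4 each). Within line, Egr1 was lower with Senexin B in 7 of 8 lines and higher in 1, and Atf3 lower in 5 and higher in 3. The named members were Dusp28, at 8.91 ± 1.01 against 7.27 ± 0.41 CPM, and Ier2, an immediate early gene, at 116 ± 49.9 against 74.0 ± 5.38 CPM (SD, n = 4 each), both apart between genotypes and with an adjusted p of 0.908 and 0.897 by edgeR. B-lineage markers Rag1 and Rag2, the recombinase genes, were also apart, at 2.71 ± 0.92 against 31.0 ± 31.6 CPM and 1.35 ± 1.19 against 16.5 ± 15.3 CPM (SD, n = 4 each), and what part this had in the phosphatase values was not tested.

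For Senexin B over all 8 lines, 0 genes of these lists were called without a block. Medians were -0.06 for ERK feedback and target genes, -0.12 for JNK and p38 effectors and -0.09 for MAP kinases, beside 0.00650 for all tested genes. In every one of 8 lines Ccnd1 (cyclin D1) and Spred2, an inhibitor of the RAS to ERK pathway, were lower. These were 2 of 22 ERK feedback and target genes, against 2.59% of all tested genes. Spred2 went from 144 ± 10.0 to 99.6 ± 9.33 CPM in Cdk8fl/fl lines (SD, n = 4 each), with groups apart. In Cdk8-deficient lines it went from 143 ± 29.3 to 121 ± 34.1 CPM (SD, n = 4 each), with overlapping groups. Map2k1, the ERK kinase MEK1, the adaptor Grb2 and Jund were also lower in every line, and the scaffold Ksr1 was higher, from 21.6 ± 5.79 to 36.5 ± 11.9 CPM in Cdk8fl/fl lines. With the line as a block, Egr3, an early growth response factor, was the 1 gene of these lists called. It was higher by 1.71 over all 8 lines (adjusted p = 0.0341 by edgeR), where 0.946% of all genes were called. In Cdk8fl/fl lines, where 0.346% were called, it was higher by 2.16 (adjusted p = 0.0315 by edgeR). There it went from a low 0.63 ± 0.26 to 2.86 ± 1.48 CPM. These lists too were made with earlier results known.

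The genes most like each member over the 16 libraries, by Pearson r of log2(CPM + 1), are given as a description, since the libraries come in pairs from 8 lines and these are the highest among 14164 tested genes. For Dusp3 they were Zfp658 (r of 0.86), Ubac1 (0.83) and Wdr47 (0.82). For Dusp6 they were Mmp14 (0.84), Nabp2 (0.83) and Irf3 (0.83), and for Dusp7 Klhl26 (0.89), 9330175E14Rik (0.89) and Slc14a1 (0.87). The single most alike gene was Ptpmt1 for Dusp22, Fgfbp3 for Dusp5, Ocel1 for Dusp2, Chac2 for Dusp4, Mfsd6 for Dusp16 and 9130604C24Rik for Dusp1, at r of 0.85 to 0.89.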

How the data were processed

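RNA of 16 libraries (SENSE mRNA-Seq kit, 50 bp single-end reads) was trimmed with Trimmomatic and aligned to GRCm38 with STAR by the authors, who deposited raw gene counts from featureCounts 1.5.1 with GENCODE M13 exons. The command in the file headers set no strand option, so reads of a gene and of one overlapping it on the other strand were not told apart by strand. Symbols were matched for 50376 of 50686 IDs. Counts were tested with edgeR 4.0.16 (TMM scaling, low-count filter, robust quasi-likelihood test), with Benjamini-Hochberg adjusted p under 0.05 and over 2-fold change as limits, limits the study also used, and without a replicate block, which its methods do not mention. DESeq2 1.42.0 was an alternative, and the study itself used an older version of DESeq2, not edgeR. For its heatmap and its pathway analysis the study set the adjusted p limit at 0.1. Fits ran on all tested genes. They were also run on simulated counts, but only with large changes in well-read genes, so that run does not bear on small differences. The 10 genes had at least 54 counts in every library. Libraries of the same genotype and replicate number were taken as 1 line: their deviations from the group means correlated at 0.559 to 0.781 in Cdk8fl/fl and 0.765 to 0.872 in Cdk8-deficient lines, every pair over 0.1. Different numbers reached at most -0.112 and 0.210, so the limit of 0.1 alone did not separate them. Their means, -0.232 and -0.273, were pulled below 0 because deviations within a group sum to 0. In both genotypes all 4 DMSO libraries correlated highest with the Senexin B library of their own number. Same-numbered lines of different genotype were not paired. The members, lists and tests were chosen with earlier results of these data known. Of each list, genes past the limits were named, or else up to 2 with the largest change whose groups did not overlap. Promoter sequences are from RefSeq (GRCm38.p6).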

Additional observations from a re-analysis of the deposited data

Results flagged for a closer look

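In 40 groups of 4 libraries (10 genes in 4 groups), 3 held a library far from the other 3 by Dixon's test at the 95% level, which chance does in about 1 of 20 groups. All 3 came from Cdk8fl/fl line 4: Dusp4 at 117 CPM in DMSO and at 103 CPM with Senexin B, and Dusp1 at 61.4 CPM in DMSO. Both are inducible nuclear phosphatases. Dusp4 was high in both libraries of the line, whereas Dusp1 was back at 25.6 CPM with Senexin B, within the range of the other lines. The DMSO library of that line was the highest of its group for 4 of the 10 phosphatase genes, against 24.7% of all tested genes, and for 7 of 22 ERK feedback and target genes. It was the lowest for 1 of the 10 and 6 of the 22. The Senexin B library of the line was the highest for 1 of the 10 and 0 of the 22, against 23.0% of all tested genes. The cause was not tested.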

How the results depend on the processing

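The block by replicate number stands for the cell line in the Senexin B comparisons; between genotypes the samples share only a number, and the block there changed no call of a member. Genes called between genotypes in DMSO went from 1 to 21 with DESeq2 and to 0 with at least 10 counts in every library, with the block, or with the block and no fold limit (chosen after seeing the data), and to 0 without any 1 library (0 to 0). Between genotypes with Senexin B, 0 became 3 with DESeq2 and 1 with an adjusted p limit of 0.1, with no filter on low counts or with all 16 libraries in 1 fit. Senexin B in Cdk8fl/fl lines went from 0 to 18 with DESeq2, 3 with no filter, 45 with the block and 46 with the block and no fold limit, with 1 of the 10 members in each but the fit with no filter; in Cdk8-deficient lines it went from 0 to 7 with the block, with and without the fold limit. Over all 8 lines 0 became 1 with an adjusted p limit of 0.1, 1 with at least 10 counts in every library, 16 with DESeq2, 134 with the block (1 member in both) and 373 with the block and no fold limit (3 members), and 0 to 5 without 1 library. No member was called between genotypes or for the interaction under any setting, with adjusted p from 0.220 to 1.00 in DMSO, 0.878 to 1.00 with Senexin B and 0.991 to 1.00 for the interaction. Signs turned only for differences that did not pass the test. Between genotypes in DMSO, Dusp2 was at -0.00902 with no filter and Dusp7 at 0.0163 with the block, and without 1 library Dusp2 ran from -0.18 to 0.17, Dusp4 from -1.89 to 0.33 and Dusp7 from -0.20 to 0.12. With Senexin B, Dusp10 was at -0.000248 with the block, and without 1 library Dusp10 ran from -0.41 to 0.42, Dusp16 from -0.0870 to 0.21, Dusp2 from -0.34 to 0.00130, Dusp22 from -0.44 to 0.0477, Dusp3 from -0.25 to 0.0663 and Dusp4 from -0.92 to 0.70. The interaction ran from -0.23 to 0.44 for Dusp1, -0.71 to 0.11 for Dusp10, -0.0159 to 0.59 for Dusp22, -0.95 to 2.21 for Dusp4, -0.0593 to 0.39 for Dusp5 and -0.0904 to 0.18 for Dusp6 without 1 library. Senexin B changes ran, without 1 library, from -0.33 to 0.34 for Dusp1, -0.18 to 0.16 for Dusp2 and -1.31 to 1.86 for Dusp4 in Cdk8fl/fl lines and, over all 8 lines, from -0.10 to 0.21 for Dusp1 and -0.09 to 1.33 for Dusp4. In Cdk8fl/fl lines the Senexin B change of Dusp2 also went from 0.00985 to -0.00243 with DESeq2 and -0.0137 with no filter. That of Dusp4 went from 0.00973 to -0.0279 with no filter. Over all 8 lines 5 members were higher without the block and 6 with it. The causes were not tested. Depth gave at least 54 counts per library for each of the 10 genes, and no test separated counting error from the spread between lines.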
